A study of Mus musculus with 12 samples.

Results

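The message of 6 STAT genes was followed in leukemic blasts that carried or lacked the β isoform of STAT3. Stat2, Stat3, Stat4, Stat5a, Stat5b and Stat6 were taken by their symbols from the 24454 genes of the deposited table. The cells were fetal liver cells of WT or STAT3β-deficient (Δβ) mice that had been transformed with a retroviral vector for the MLL-AF9 fusion oncogene and the Venus reporter. They grew in young adult male NSG recipients (strain NOD.Cg-Prkdc scid Il2rg tm1Wjl/SzJ), a host without functional T, B and NK cells of its own. All 4 groups therefore shared the oncogene, the reporter and the host strain. Blasts were sorted for Venus from the spleen (SP) and bone marrow (BM) of diseased animals, and poly-A enriched RNA was sequenced. There were 3 libraries each of WT SP, Δβ SP, WT BM and Δβ BM, 12 in all, with 9001051 to 13859727 reads on genes. The labels do not say whether libraries of 1 group came from separate donors or recipients, so the p-values measure the spread between these libraries only.

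STAT proteins wait in the cytoplasm until a JAK kinase bound to a cytokine receptor phosphorylates them, after which they pair up, enter the nucleus and bind DNA. STAT2 works with IRF9 in the ISGF3 complex of the type I interferon response, STAT3 follows IL-6 family cytokines and G-CSF, STAT4 follows IL-12, STAT5A and STAT5B follow IL-3, GM-CSF and other growth factors, and STAT6 follows IL-4 and IL-13. In myeloid cells STAT3 and STAT5 are best known for their part in granulocyte formation, survival and leukemic growth. SOCS proteins, many of them STAT targets themselves, shut the signal down.

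The isoform missing from Δβ blasts arises by 1 splice choice of Stat3, and its 2 outcomes in the reference are shown here because this choice sets the genotypes apart. In GENCODE M21 on GRCm38, the annotated α transcript holds 50 bases at the start of exon 23, chr11:100889541-100889590 on the minus strand, that the β transcript skips. Capitals mark these 50 bases, the 20 lower-case bases before them end the previous exon, and the 22 after them are shared by both transcripts but read in a different frame.
Stat3 α: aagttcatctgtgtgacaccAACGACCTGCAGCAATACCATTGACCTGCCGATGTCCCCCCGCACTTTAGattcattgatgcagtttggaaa
Stat3 β: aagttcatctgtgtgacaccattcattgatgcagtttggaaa
The α coding sequence is 2310 bases long and the β coding sequence 2166 bases, without the stop codon. The 50 bases make up 0.525% of all annotated exon bases of the gene. The deposited values are sums over isoforms, so the Stat3 row does not tell α from β and does not check the genotype labels.

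The second sequence shown is the Stat2 promoter, since Stat2 was the member whose SP groups did not overlap. The window runs from 250 bases before to 50 bases after the RefSeq start, chr10:128270248-128270547 on the plus strand of GRCm38.p6, and capitals mark a match to the interferon-stimulated response element (ISRE), searched as TTTCNNTTTC or GAAANNGAAA.
Stat2: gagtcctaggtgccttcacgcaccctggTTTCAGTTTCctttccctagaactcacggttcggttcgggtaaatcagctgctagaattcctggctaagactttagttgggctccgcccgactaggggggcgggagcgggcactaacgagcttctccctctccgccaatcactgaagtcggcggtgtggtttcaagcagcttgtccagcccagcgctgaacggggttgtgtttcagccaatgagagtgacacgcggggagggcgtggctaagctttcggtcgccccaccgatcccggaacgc
The first base of the match is at position -222 from the start. RefSeq gave 9 windows for the 6 genes, and 1 of the 2 Stat4 windows also held these letters, at position -97. They stand in 3.44% of all 32851 mouse promoter windows of this length. The letters TTCNNNGAA of the interferon-gamma activated site (GAS), which STAT dimers bind, were in 0 of the 9 windows, against 8.30% of all windows. A match is a run of letters and says nothing on binding in these cells.

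The 6 genes lie at 3 places in the genome (GENCODE M21, GRCm38). Stat5b (minus strand, 100780731 to 100850724), Stat5a (plus strand, 100859351 to 100885169) and Stat3 (minus strand, 100885098 to 100939540) lie side by side on chromosome 11 within 158.81 kb. The 3′ ends of Stat5a and Stat3 overlap by 72 bases on opposite strands, and whether counting used strand is not given in the sources used here, so reads from these 72 bases could belong to either gene. Stat6 (127642986 to 127660957) and Stat2 (128270559 to 128292849) are both on the plus strand of chromosome 10, 609.6 kb apart, and Stat4 is on the plus strand of chromosome 1 from 51987148 to 52107189. Stat5a and Stat5b coding sequences matched at 90.7% of 2343 aligned bases, with an identical run of 324 bases. For 26.1% of the 50-base stretches of Stat5a the same stretch occurs in Stat5b, so the split of reads between these genes is uncertain.

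All 6 genes were well above the detection floor of 3 reads, with the fewest reads for Stat4 (54 to 352 per library) and the most for Stat3 (2268 to 4175) and Stat6 (2087 to 4426). To set the genes against each other, the level was taken as RPKM, the reads per kilobase of annotated exon scaled to the reads on genes of the library. In each of the 4 groups the order of mean levels was Stat6, Stat3, Stat5b, Stat2, Stat5a, Stat4. In WT BM the mean RPKM was 55.2 ± 3.56 (SD, n = 3) for Stat6, 28.6 ± 1.63 for Stat3 and 20.1 ± 1.55 for Stat5b. It was 13.1 ± 0.792 for Stat2, 7.88 ± 0.450 for Stat5a and 3.03 ± 1.30 for Stat4, and no neighbours in this order overlapped in WT BM.

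Stat6 alone held between 42.1% (Δβ BM) and 47.7% (WT SP) of the summed RPKM of the 6 genes. The library ranges of neighbours overlapped for Stat3 and Stat5b in WT SP and Δβ BM, and for Stat5b and Stat2 in Δβ SP. They also overlapped for Stat5a and Stat4 in WT SP. Within each single library of these groups the first-named gene was still the higher. The closest were Stat5a and Stat4 in WT SP replicate 3, at 8.70 and 8.45 RPKM. The ratio of Stat5b to Stat5a per exon length was 3.09 ± 1.19 for WT and 2.19 ± 0.325 for Δβ blasts of the SP. It was 2.57 ± 0.305 for WT and 2.64 ± 0.451 for Δβ blasts of the BM. These ratios overlapped between the groups.

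**Figure D1:**
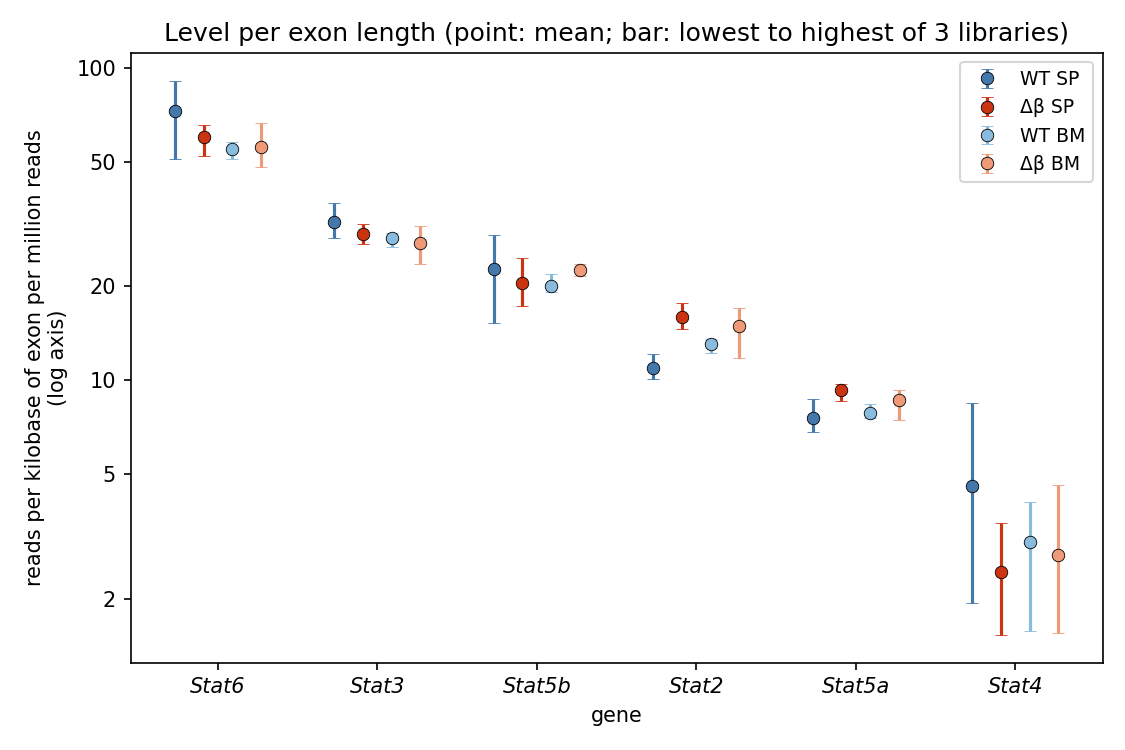
Level of each STAT gene per exon length (y axis, RPKM, log axis) in the 4 groups, with the mean as a point and the lowest and highest of 3 libraries as a bar. Stat6 stands highest in every group, at 55.2 to 73.0, and Stat4 lowest, at 2.43 to 4.59 with the longest bars.

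The genes differed in how much they varied between libraries of the same group. The within-group SD of the log2 normalized count was 0.11 for Stat5a, at the 5.79 percentile of all 11476 tested genes, and 0.80 for Stat4, at the 89.9 percentile. Stat3 and Stat2 had SDs of 0.20 and 0.22, and Stat6 and Stat5b had 0.32 and 0.34. For Stat5b and Stat6 the WT SP libraries were the most variable group, with SDs of 0.59 and 0.54.

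The WT SP libraries stood apart from each other, and they enter both the genotype comparison in SP and the organ comparison in WT. The 6 genes in both comparisons, and the gene lists in the first, are therefore also given with libraries left out. These were replicate 3 in 1 choice and replicates 1 and 2 in the other. Both choices were made after seeing the data for the lists, and so was the second for the genes. Without replicate 3, 16.4% of all tested genes passed the adjusted threshold between Δβ and WT in SP, and without replicates 1 and 2 it was 0.0610%, with the 1 WT library left assumed to vary like the other groups. Replicates 1 and 2 were high in most mature myeloid genes: Lyz2 (lysozyme) was at 62148 and 42416 against 10341 in replicate 3, and Csf1r, the M-CSF receptor, at 16616 and 8024 against 2719. Camp of the same list did not split this way, at 14235 and 30075 against 22751. S100a8 split less, at 40977 and 70767 against 35913. Replicate 3 was high in granule enzymes of myeloid progenitors, with Elane at 72724 against 12215 and 14208, and Mpo, myeloperoxidase, at 40587 against 5947 and 5256. Cd34 and Spi1 of the progenitor list went the other way. Cd34 was at 241 in replicate 3 against 491 and 889, and Spi1 at 5839 against 9726 and 7918. All 8 genes of the MLL-AF9 blast list were tested. Hoxa9 was present in every library, with its lowest value, 798, in WT SP replicate 1 and 1237 or more in the others. Hoxa10, Meis1 and Myb were also lowest in WT SP replicate 1, with Hoxa10 at 88.9 against 344 or more elsewhere. The summed list was lowest in that library too, at 6119 normalized counts, against 11309.5 or more elsewhere. Its Hoxa5, Hoxa7 and Pbx3 values lay within the range of the other libraries. Mecom reached 82.7 in WT SP replicate 2 and 92.3 in replicate 3, but 8.06 at most elsewhere. The correlation between libraries of a group (log2 values across 11476 genes) fell to 0.897 in WT SP and was at least 0.929 in the other groups. The 10 mature myeloid genes summed to 127854 to 315002 normalized counts in WT and 85475 to 105762 in Δβ libraries of SP. Their sum in BM was 116473 to 329142 for WT and 75372 to 219663 for Δβ. Such sums weigh the highest genes most. As a mean log2 deviation, which weighs the genes equally, WT SP replicate 3 was at -0.63. That was below the Δβ SP libraries, at -0.47, -0.59 and -0.56. The ribosomal RNA gene Rn45s took 0.725%, 2.48% and 2.41% of the reads on genes in WT SP replicates 1, 2 and 3 and 0.178% to 0.655% in the other 9 libraries. The part of Rn45s and of maturation state in the values of Stat3, Stat5b and Stat6 was not tested, and in bulk RNA fewer cells of a type and less RNA per cell cannot be told apart.

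**Figure D2:**
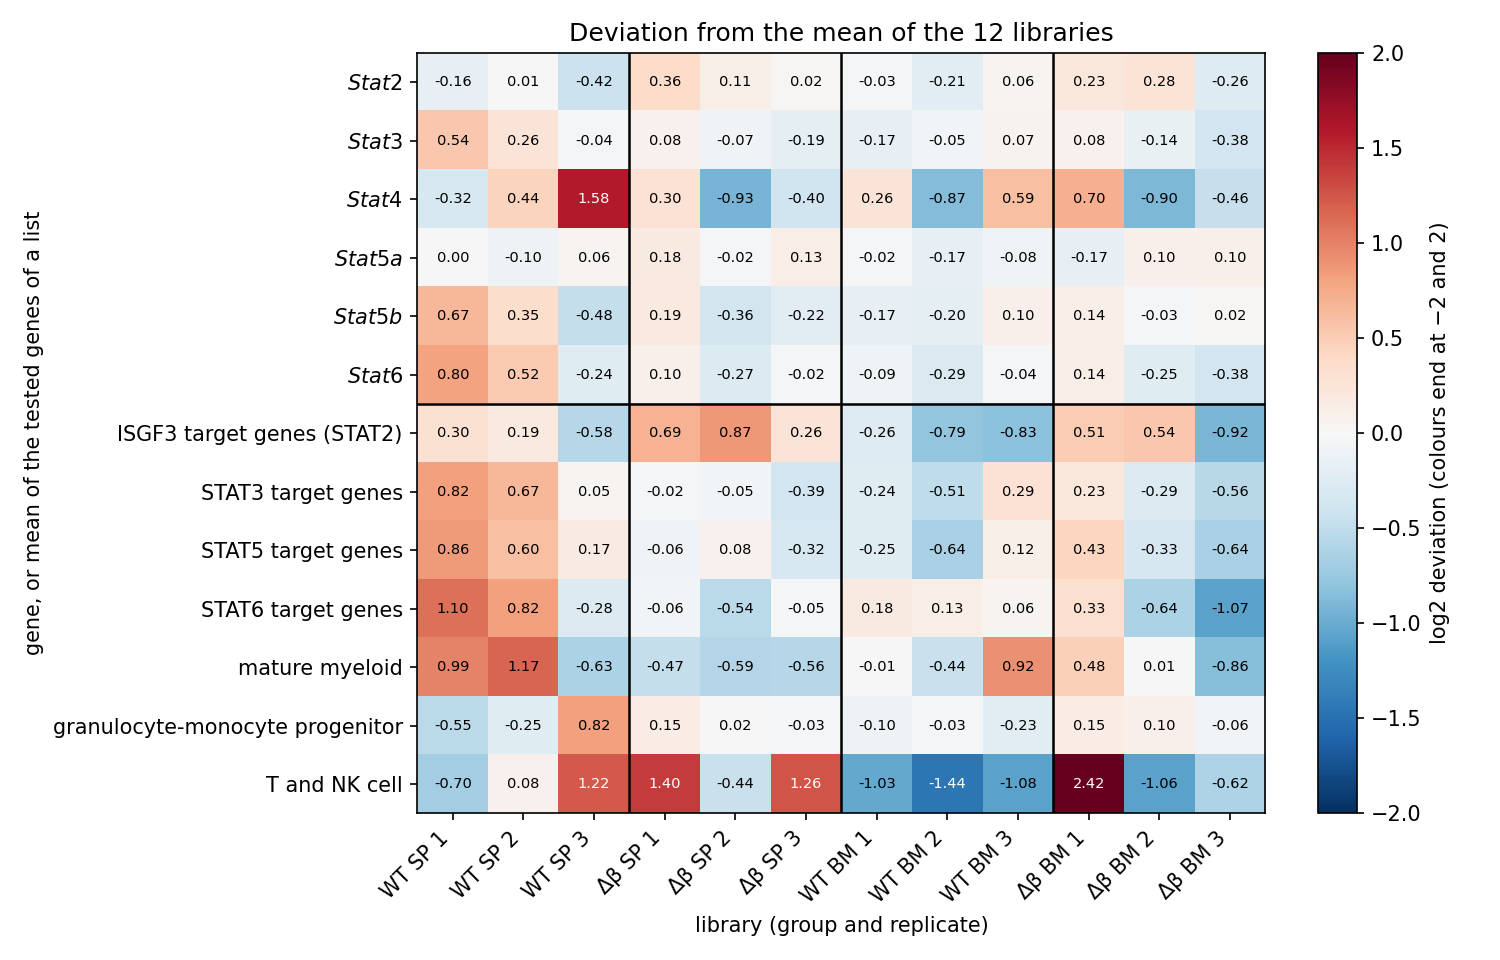
Deviation of each STAT gene, and of the mean of each of 7 gene lists, from its mean over the 12 libraries (colour and printed value, log2 scale), with libraries grouped on the x axis. List means are over tested genes, of which the T and NK list has 3. Stat3, Stat5b and Stat6 are high in WT SP replicates 1 and 2, like the mature myeloid list (0.99 and 1.17), and Stat5b (-0.48) and Stat6 (-0.24) are low in WT SP replicate 3, where the granulocyte-monocyte progenitor list is highest (0.82). In WT BM replicate 3 the mature myeloid list is at 0.92 while Stat3, Stat5b and Stat6 are at 0.07, 0.10 and -0.04.

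The comparison of Δβ with WT asked whether loss of the β isoform goes with a change in the message of any of these genes. In SP, Stat2 was higher in Δβ by a log2 fold change of 0.35, Stat3, Stat4, Stat5b and Stat6 had negative values from -0.31 to -0.91, and Stat5a was at 0.11. None of the 6 passed an adjusted p of 0.05 in SP, where 0.105% of the tested genes did (limma with Benjamini-Hochberg adjustment), nor in BM (0.0697% of genes), nor over both organs (0.148%). At an unadjusted p under 0.05 the count was also 0 of 6 in each, against 14.9% of genes in SP, 2.59% in BM and 9.91% over both organs. DESeq2 and edgeR on the recovered reads called 0 members as well. Of all 11476 genes, DESeq2 called 457 in SP, 37 in BM and 422 over both organs. edgeR called 4, 8 and 16.

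**Figure D3:**
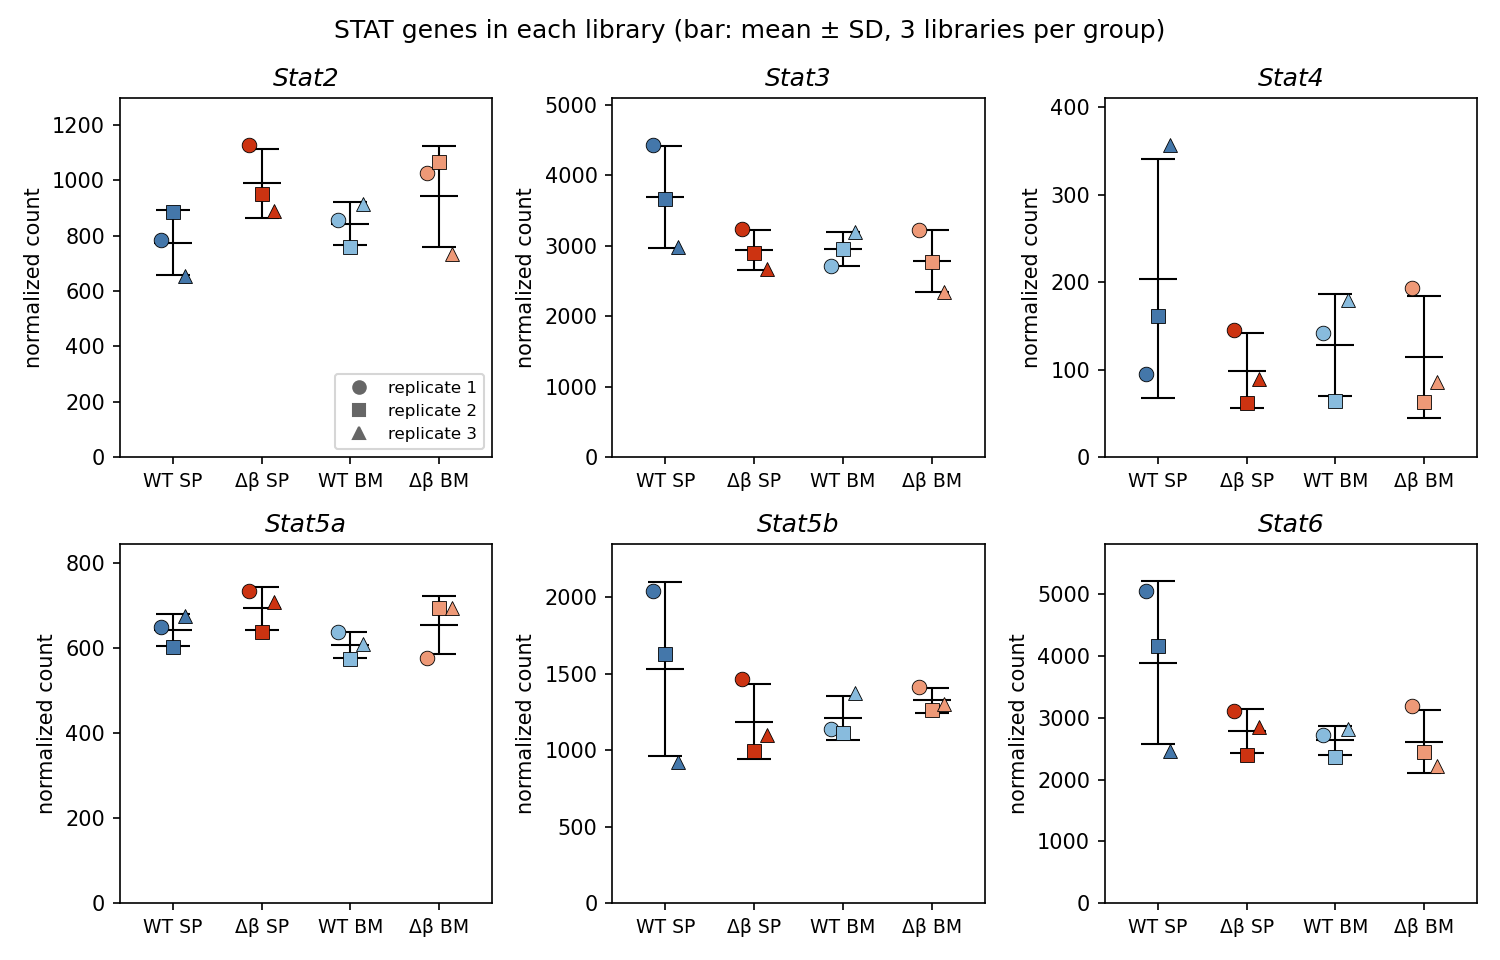
Normalized count (y axis, from 0) of each STAT gene in every library of the 4 groups, with symbols for the replicate and a bar for mean ± SD of 3 libraries. Stat2 in SP is the panel in which all 3 Δβ libraries (888 to 1128) sit above all 3 WT libraries (654 to 886), and Stat5b and Stat6 show WT SP replicates 1 and 2 high and replicate 3 low.

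Stat2, the partner of IRF9 in the type I interferon pathway, was at 786, 886 and 654 normalized counts in replicates 1, 2 and 3 of WT SP. The Δβ SP libraries had 1128, 949.9 and 888. The Δβ libraries were all above the WT libraries, but the highest WT and the lowest Δβ library were close together. The mean was 775 ± 117 in WT and 989 ± 125 in Δβ (SD, n = 3 each), with a log2 fold change of 0.35 (SE 0.17, 95% interval -0.02 to 0.73, adjusted p = 0.357 from limma). Stat2 was the 1 member of 6 whose SP groups did not overlap. Of all tested genes, 7.92% were higher in Δβ SP without overlap and 9.37% lower, so 1 of 6 lies near the background, and with 3 libraries against 3 an exact permutation test cannot go below a two-sided p of 0.1. Per exon length the Stat2 level was 10.9 ± 1.06 RPKM in WT SP and 15.9 ± 1.60 RPKM in Δβ SP, also without overlap. The log2 difference on the RPKM scale, which has no scaling by size factor, was 0.54. Every other member also had a higher SP value on that scale, so the shift is not particular to Stat2. Stat5a, for example, went from 0.11 to 0.30 and Stat6 from -0.43 to -0.24. Over the other planned settings of the test the log2 fold change lay between 0.35 and 0.44, between 0.24 and 0.46 with 1 library left out (the lowest without WT SP replicate 3), and at 0.59 without WT SP replicates 1 and 2.

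In BM, Stat2 had 856, 760.4 and 914 normalized counts in WT and 1029, 1065 and 732 in Δβ. Replicate 3 of Δβ BM was the lowest of the 6 libraries, so the groups overlapped, as they did in BM for the other 5 genes, where 3.5% of all genes were higher and 4.13% lower in Δβ without overlap. The log2 fold change was 0.14 (SE 0.17, adjusted p = 0.99997 from limma), and that over both organs was 0.25 (95% interval -0.04 to 0.54, adjusted p = 0.547).

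Its partner Irf9 had 1121, 783 and 501 normalized counts in WT SP and 1352, 1184 and 810.3 in Δβ SP, with a log2 fold change of 0.52 (adjusted p = 0.514 from limma). In BM it had 522, 504 and 408 in WT against 1094, 929.8 and 377 in Δβ, at 0.61 (adjusted p = 0.99997). Both Irf9 comparisons overlapped, through the replicate 3 library of Δβ in BM and through WT replicate 1 in SP. The receptor chains of type I interferon had log2 fold changes in SP of -0.02 for Ifnar1 and 0.03 for Ifnar2.

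Of 25 tested genes on a list of ISGF3 targets, which like the other lists was written with earlier results of these data known, 21 had a higher mean in Δβ SP and 24 in Δβ BM. The median log2 fold change was 0.45 in SP and 0.46 in BM, against -0.01 and -0.02 for all tested genes. Not every Δβ library lay above the WT libraries. By the mean log2 deviation of this list, replicate 3 of Δβ BM was the lowest of the 12 libraries (-0.92). Replicates 1 and 2 of that group stood at 0.51 and 0.54, and the WT BM libraries at -0.26, -0.79 and -0.83. Among SP libraries, Δβ replicate 3 (0.26) was below WT replicate 1 (0.30). The remaining Δβ values there were 0.69 and 0.87, and the remaining WT values 0.19 and -0.58. In the list 0 genes passed the adjusted threshold in SP and 1 in BM. At an unadjusted p under 0.05 there were 6 of 25 in SP, against 14.9% of all genes, and 4 of 25 in BM, against 2.59%. The gene that passed was Ube2l6, the conjugating enzyme for the ubiquitin-like protein ISG15. WT BM libraries had 43.7, 13.5 and 44.3 normalized counts of it and Δβ BM libraries 544, 398 and 268, a log2 fold change of 3.65 (adjusted p = 0.00891 from limma). In SP it had 69.5, 82.7 and 62.9 in WT and 391, 377 and 329.9 in Δβ (log2 fold change 2.34, adjusted p = 0.0673), and the groups were far apart in both organs. The BM call was lost without Δβ BM replicate 1 (adjusted p = 0.0527) or 2 (adjusted p = 0.0701), with log2 fold changes of 3.41 and 3.63, and with the BM libraries fitted alone (adjusted p = 0.146). Over both organs Ube2l6 was at 3.00 (adjusted p = 0.0155), and without WT replicate 2 or Δβ replicate 1 or 2 the adjusted p was 0.0502 to 0.126. Mx1, an antiviral GTPase on the same list, showed the largest fall of its list over both organs, at -0.48 in SP and -0.03 in BM, and did not pass the test. The size of the SP median depended on which WT SP libraries were used. Without replicate 3 the SP median was 0.25 with 17 of 25 higher and 1 called higher, against 16.4% of all genes called in that fit. Without replicates 1 and 2 the SP median was 1.17 with 22 higher. Without Δβ BM replicate 1 the BM median was 0.27, with 21 of 25 higher and 0 called.

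**Figure D4:**
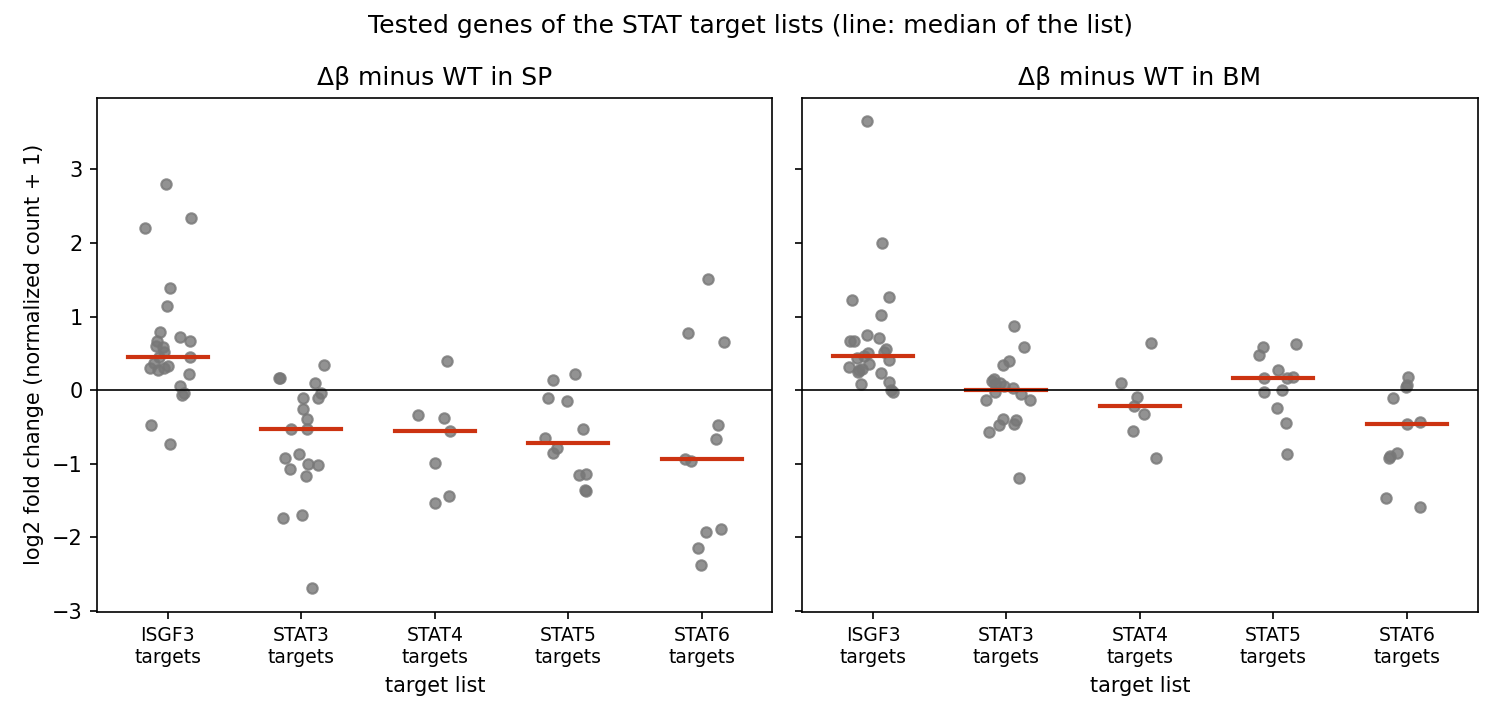
Log2 fold change of Δβ against WT (y axis, scale of the normalized count plus 1) for each tested gene of 5 STAT target lists in SP and BM, with a line at the list's median. ISGF3 targets lie mostly above 0 in both organs (medians 0.45 and 0.46), and STAT3 and STAT5 targets have negative medians in SP (-0.53 and -0.72) and medians near 0 or above in BM (0.00 and 0.17).

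Stat3, whose product carries the signal of IL-6 and G-CSF, measured 4430, 3662 and 2977 normalized counts in WT SP, and 3236, 2898 and 2674 in Δβ SP. Both of the highest values were in WT replicates 1 and 2, while WT replicate 3 lay inside the Δβ range. The 95% interval of the log2 difference ran from -0.67 to 0.04 in SP and from -0.46 to 0.26 in BM. Without WT SP replicate 3 the SP difference was -0.46 (adjusted p = 0.0663 from limma), and without replicates 1 and 2 it was -0.02.

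The IL-6 receptor chain gene Il6ra had 4463, 3320.4 and 861 normalized counts in WT SP against 2102, 1367 and 1596 in Δβ SP. This is the same split within WT SP, with replicates 1 and 2 high and 3 low, and its log2 fold change was -0.49 (adjusted p = 0.616 from limma). Il6st, the shared gp130 chain, was at 0.40, and Csf3r, the G-CSF receptor, at -0.62 (adjusted p = 0.309). Socs3, the inhibitor that STAT3 induces, had 1442, 321 and 175 normalized counts in WT SP and 83.7, 66.1 and 52.3 in Δβ SP. Its groups did not overlap, the 3 WT libraries spread widely, and the log2 fold change was -2.69 (adjusted p = 0.218 from limma). In BM the Socs3 difference was 0.87, the other way.

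Among 20 tested genes on a list of STAT3 targets, 16 had a lower mean in Δβ SP (median -0.53) and 10 in Δβ BM (median 0.00), with 0 called in either. Junb, an AP-1 subunit, was the one that passed in the test over both organs, with a log2 fold change of -1.08 (adjusted p = 0.0366 from limma). WT SP libraries had 5267, 3993 and 3291 normalized counts of Junb against 1186, 1964 and 865 in Δβ SP, where it fell short of the threshold (-1.70, adjusted p = 0.0796), and -0.47 in BM. Leaving out any 1 of the 6 SP and BM averages behind that test took the Junb call away (adjusted p 0.0634 to 0.148), as did quantile normalization (adjusted p = 0.0567), a fit without a trend (adjusted p = 0.100) and a fit of the 12 single libraries (adjusted p = 0.0693). Without WT SP replicate 3, 5 of the 20 genes were called lower in SP, against 16.4% of all genes called in that fit, and the median was -0.94. Without replicates 1 and 2 the median was -0.18 and 0 were called.

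Stat5a was the steadiest of the 6 genes, with a ratio of 1.28 between its highest and its lowest library. Stat5a ran at 649.6, 603 and 677 normalized counts in WT blasts of the SP and 735, 637 and 709.9 in the Δβ ones. In BM, WT libraries had 638, 576 and 611 and Δβ libraries 577, 694 and 696. The log2 fold change of Stat5a was 0.11 (95% interval -0.14 to 0.35) in SP and 0.10 (-0.14 to 0.35) in BM. In SP it was 0.15 without WT replicate 3 and 0.03 without WT replicates 1 and 2.

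Stat5b reached 2039.9, 1631 and 921 normalized counts in WT SP and 1465, 997 and 1099.6 in Δβ SP. The highest and the lowest of the 12 libraries were both in WT SP. The log2 fold change was -0.31 (SE 0.25, adjusted p = 0.537 from limma). BM values were 1141, 1115 and 1377 in WT and 1414, 1260.4 and 1304 in Δβ, a log2 fold change of 0.14 (adjusted p = 0.99997). Without WT SP replicate 3 the SP difference was -0.64 and passed the threshold (adjusted p = 0.0340), and 1884 genes passed in place of 12. Without replicates 1 and 2 of WT SP it was 0.35, the other way, with the remaining WT library assumed to vary like the other groups.

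Csf2rb, the shared receptor chain for IL-3 and GM-CSF upstream of STAT5, was at -0.39 in SP (adjusted p = 0.375 from limma) and -0.04 in BM. The STAT5 targets Pim1, a survival kinase, and Cish, a SOCS family inhibitor, were at -0.53 and -0.86 in SP and at 0.59 and 0.48 in BM, and none of these passed the test. Of 12 tested STAT5 targets, 10 had a lower mean in Δβ SP (median -0.72) and 4 in Δβ BM (median 0.17), with 0 called. Ccnd2, a cyclin of the G1 phase, had the largest fall of that list (-1.13 in SP and -0.87 in BM). The SP median of the list was -0.56 without WT SP replicate 3, with 11 of 12 lower and 1 called, against 16.4% of all genes called in that fit. Without replicates 1 and 2 the SP median was -0.11 with 7 lower. Without Δβ BM replicate 1 the BM median was -0.01, with 6 of 12 lower.

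Stat6, the IL-4 and IL-13 factor and the most abundant of the 6 per exon length, had 5044, 4160.9 and 2456 normalized counts in WT SP and 3104, 2397 and 2848 in Δβ SP. WT replicate 3 lay below 2 of the 3 Δβ libraries. The log2 fold change was -0.43 (SE 0.24, 95% interval -0.95 to 0.10, adjusted p = 0.406 from limma). In BM it had 2724, 2369 and 2814 in WT and 3188, 2438 and 2219 in Δβ, a log2 fold change of -0.02 (adjusted p = 0.99997). Without WT SP replicate 3 the SP difference was -0.73 and passed (adjusted p = 0.0243), and without replicates 1 and 2 it was 0.17.

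The receptor chain genes Il4ra and Il13ra1 were at -0.10 and -0.77 in SP, neither past the test. Il13ra1 spanned 3254, 1981 and 396 normalized counts in WT SP, so the 3 libraries of that group differed more among themselves than the group means did. Of 11 tested STAT6 targets, 8 had a lower mean in Δβ in each organ (medians -0.93 and -0.46), with 0 called. Fn1, which encodes fibronectin, had 28796, 28088 and 3623 normalized counts in WT SP and 5362, 1436 and 7475 in Δβ SP. Chil3, a chitinase-like protein of alternatively activated macrophages and neutrophils, ranged from 23303 to 144009 over the 12 libraries with overlapping groups (-0.47 in SP and -0.46 in BM), and Arg1 was below the filter. Without WT SP replicate 3 the STAT6 target median in SP was -1.70 with 3 of 11 called lower, against 16.4% of all genes called in that fit. Without replicates 1 and 2 the SP median was 0.09 with 5 of 11 lower. Without Δβ BM replicate 1 the BM median was -0.97 with 11 of 11 lower.

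Stat4, the IL-12 factor known from T and NK cells, had the fewest reads and the largest spread of the 6 genes. WT SP libraries measured 94.6, 161 and 357 normalized counts, and Δβ SP libraries 146, 61.6 and 89.7. In BM there were 142, 64.2 and 179 in WT and 194, 63.1 and 86.0 in Δβ. The groups overlapped widely in both organs, and the SP difference of -0.91 had a 95% interval from -2.18 to 0.36 (adjusted p = 0.448 from limma). The SP difference was -0.40 without WT replicate 3 and -1.93 without WT replicates 1 and 2, neither past the test. Of 7 tested STAT4 targets, 6 had a lower mean in Δβ SP (median -0.55) and 5 in Δβ BM (median -0.22), with 0 called, and Il18rap, a chain of the IL-18 receptor, was at -0.99 and -0.92. The SP median of that list was -0.90 without WT SP replicate 3, with 2 of 7 called lower, against 16.4% of all genes called in that fit. Without replicates 1 and 2 the SP median was -0.40 with 4 lower. Replicate 1 had the highest Stat4 value in each Δβ group.

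Of the 13 T and NK list genes in the table, 9 were highest in Δβ BM replicate 1 and 2 in Δβ SP replicate 1. Among the 9, Ncr1 was at 1.09 normalized counts there, under the floor of 3 reads (3.26 in that library), and Prf1 at 5.44. Cd8a was at 17.8 in Δβ SP replicate 1 and at 103 in Δβ BM replicate 1, and at 0 to 8.54 normalized counts in the other 10 libraries. Cd3g was at 20.9 and 72.8 there, and at 0 to 10.7 elsewhere. Cd2 went another way, at 33.7 in Δβ BM replicate 1 and 38.0 in Δβ SP replicate 1 but 87.8 and 92.2 in WT SP replicates 1 and 2 and 76.9 in Δβ SP replicate 3. The highest Stat4 library, WT SP replicate 3, had Cd3e and Cd8a at 4.06 each and stood out for Nkg7, a granule gene of cytotoxic and early myeloid cells (828 against 14.8 to 358 in the other 11 libraries). The summed T and NK list, of which 13 of 14 genes were in the table, ran from 126 to 872 normalized counts in the WT and 196 to 391 in the Δβ libraries of SP. In BM the WT libraries spanned 103 to 374 and the Δβ libraries 149 to 707. Nkg7 alone made up 828 of the 872 in WT SP replicate 3 and 358 of the 374 in WT BM replicate 1. It made up 255 of the 707 in Δβ BM replicate 1. The part of T and NK cells in the Stat4 values was not tested.

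**Figure D5:**
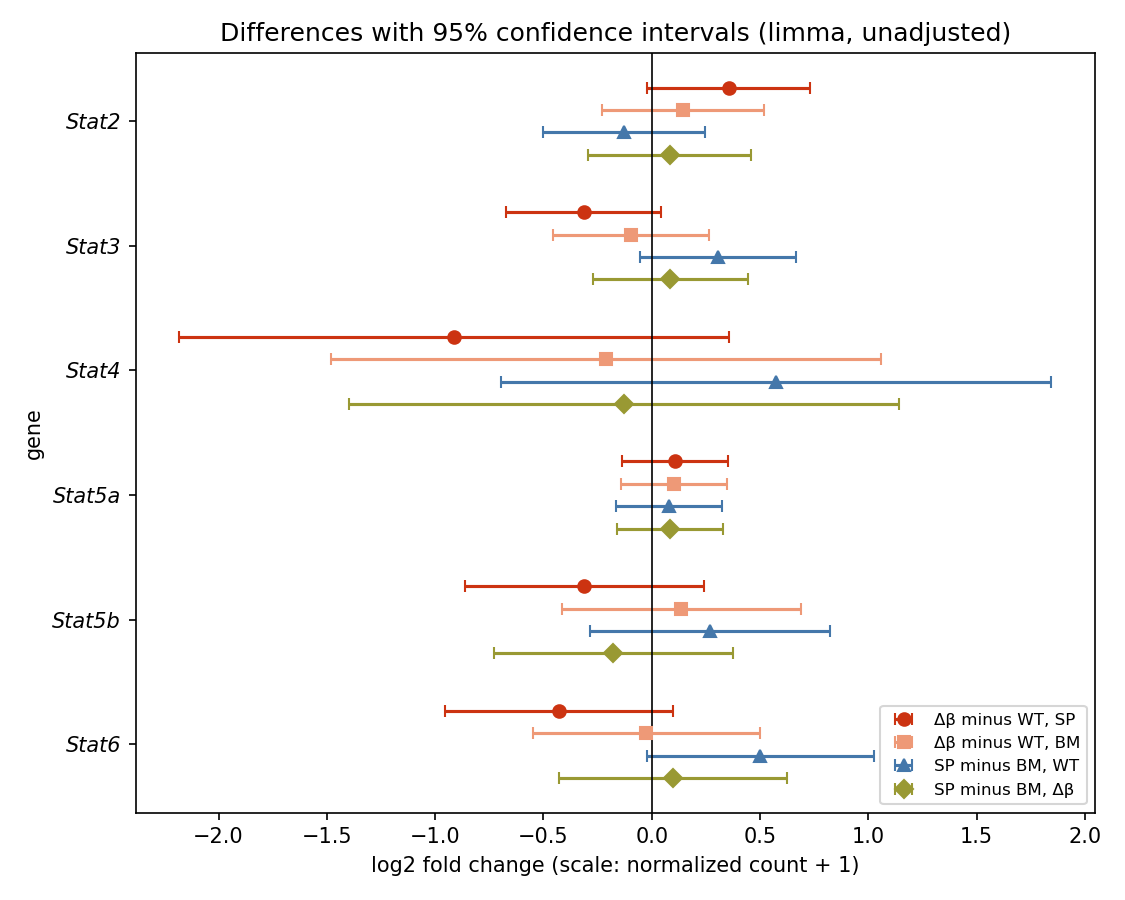
Log2 fold change (x axis, scale of the normalized count plus 1) of each STAT gene in 4 comparisons, with limma's unadjusted 95% confidence interval. Every interval includes 0, those of Stat5a are the narrowest (-0.17 to 0.35 over all 4) and those of Stat4 the widest (-2.18 to 1.84).

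The kinases upstream gave no call with all libraries. Among the 4 JAK genes, Jak1 was at -0.43, Jak2 at -0.41 and Tyk2 at -0.15 in SP, and Jak3, the kinase of the common gamma chain, was at 0.29. Of the inhibitors, 4 of 7 tested SOCS genes had a higher mean and 3 a lower mean in Δβ in both organs. The phosphatase genes Ptpn6 (SHP-1) and Ptpn1 (PTP1B) were at -0.29 and -0.78 in SP, and Usp18, which restrains interferon receptor signaling, was at 0.73 in SP and 1.23 in BM with values of at most 51.5 normalized counts. Receptor chains were counted on 4 lists, with 0 called on any when all libraries were used. Of 7 tested interferon and IL-10 family chains 5 had a lower mean in Δβ SP and 4 in Δβ BM, and of 5 IL-6 family and G-CSF chains 3 were lower in each organ. Lower means were also found for 5 of 7 myeloid growth factor chains in SP and 4 in BM, and for 5 of 7 chains of the IL-4, IL-12 and common gamma group in SP and 2 in BM. The PIAS, phosphatase and USP18 list had 6 of 11 genes lower in SP and 8 in BM, and the list of STAT partners and coactivators had 6 of 10 lower in SP and 3 in BM, again with 0 called. These SP counts too turned on the WT SP libraries. Without replicate 3, 2 of 4 JAK genes, 1 of 7 SOCS genes, 3 of 11 on the PIAS list and 4 of 10 partners were called lower in Δβ SP. So was 1 chain on each receptor list but that of the growth factors, where 0 were. In that fit 16.4% of all tested genes were called in either direction. Without replicates 1 and 2, 0 were called, and the lower means numbered 2 of 7 interferon, 1 of 5 IL-6 and G-CSF, 3 of 7 growth factor and 3 of 7 IL-4 group chains, 1 of 7 SOCS genes, 3 of 11 on the PIAS list, 1 of 10 partners and 3 of 4 JAK genes. Over all pathway lists with all libraries, 125 of 152 genes could be tested, and 0 passed in SP, 1 in BM and 2, Ube2l6 and Junb, over both organs.

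Between organs, none of the 6 genes passed the adjusted threshold in WT or in Δβ, where 0% of all genes did in either. At an unadjusted p under 0.05 the count was also 0 of 6, against 8.27% of genes in WT and 1.77% in Δβ. DESeq2 called 0 members, against 111 of 11476 genes in WT and 2 in Δβ. Stat6 had the largest organ difference beside its error, 0.50 higher in WT SP than in WT BM (SE 0.24, adjusted p = 0.602 from limma). It reached 0.80 with an adjusted p of 0.0337 without WT SP replicate 3, when 598 genes (5.21%) passed in place of 0. For the other 5 genes the WT organ difference lay between -0.01 (Stat2) and 0.60 (Stat5b) without replicate 3, and none passed. Without replicates 1 and 2 it lay between -0.39 (Stat5b) and 1.59 (Stat4) over the 6 genes, and none passed. In Δβ the organ differences of the 6 genes lay between -0.18 (Stat5b) and 0.10 (Stat6). SP and BM overlapped for all 6 genes in both genotypes. Within the same-numbered Δβ pairs Stat3 was higher in SP in 3 of 3, by 0.0035, 0.067 and 0.19 on the log2 scale, as were 15.7% of all genes, and the other 5 genes went both ways. A paired fit of the Δβ libraries alone, added after seeing the data, called 0 of the 6 (adjusted p 0.562 to 0.820 from limma) and 0 of all genes. Without overlap, 5.66% of all genes were higher and 5.8% lower in WT SP than in WT BM, and 2.92% and 4.51% in Δβ. The genotype effect was not shown to differ between the organs for any of them, with interaction values from -0.70 (Stat4) to 0.21 (Stat2) and adjusted p from 0.926 to 0.996 (limma), and 0% of all genes passed that test (3.2% at an unadjusted p under 0.05, and 0 of the 6).

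Over the 12 libraries, Stat3, Stat5b and Stat6 ran together and the other 3 genes did not. Pearson's r of log2 values was 0.90 between Stat3 and Stat6, 0.84 between Stat5b and Stat6 and 0.73 between Stat3 and Stat5b, while all pairs with Stat2, Stat4 or Stat5a lay between -0.32 and 0.24. These are descriptions over 12 libraries in 4 groups that share the WT SP split. Stat5a and Stat5b, for all their sequence likeness, had an r of -0.11.

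The genes whose pattern over the 12 libraries was most like that of Stat6 were Stard3 (r = 0.98), a cholesterol-binding protein of endosomes, Fam89b and Fam49a. For Stat3 they were Wsb2 (r = 0.97), a SOCS box protein, Vps9d1 and Tgfbi, a matrix protein. For Stat5b they were Trpc4ap (r = 0.96), Ypel3 and the ubiquitin ligase gene Mkrn1. Stat2 was followed most closely by Igip (r = 0.92), 4933412E12Rik and Plekhh3, all with means of 13.6 to 21.7 normalized counts. Stat4 was followed by Osbpl7 (r = 0.95), Naprt, an enzyme of NAD synthesis, and Fbp1, an enzyme of gluconeogenesis. Stat5a, which varied least, had the lowest top value, with Apeh (r = 0.85), Fam195b and Aldh16a1. None of these 18 genes passed the adjusted threshold in SP or BM.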

How the data were processed

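For each library the authors deposited normalized counts (signal values), which are read counts of genes scaled by a single factor. The labels name FastQC, STAR, featureCounts, DESeq2 and GRCm38 (mm10) without versions. All values (100%) were whole multiples of the value of 1 read to a relative tolerance of 1e-06, so whole reads could be recovered. Another 6 columns match no sample label and were not used. Groups came from the labels.

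Genes with a mean of at least 10 (11476) were fitted with limma 3.58.1 in R 4.3.3 (eBayes with trend) on log2 of the normalized count plus 1, 1 mean per group, with Benjamini-Hochberg adjustment over all of them at 0.05. That scale understates changes of low genes. For both organs together, the SP and BM values that share genotype and number were averaged. The procedure was tested on simulated data. edgeR 4.0.16 and DESeq2 1.42.0 on recovered reads were alternatives, with other pseudocounts, filters and scalings and each library left out. For both organs together, each average was left out instead.

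Same-numbered Δβ SP and Δβ BM libraries deviated together (r = 0.61 to 0.66 across genes), and WT numbers did not (r = -0.24 to -0.01). The Δβ numbers were therefore taken as pairs in the counts within pairs and the added paired fit. The block alternative used the WT numbers as well. Between organs and for the interaction its block was the number within genotype, and in the genotype comparisons the number shared by WT and Δβ. The main fits had no pairing, so between organs and for the interaction they treat these libraries as independent. The averages over both organs went by number in WT too. RPKM was computed from recovered reads and GENCODE M21 exon unions. Promoters are RefSeq's.

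The members and all gene lists were chosen with earlier results of these data known. Named genes are the members, the 3 genes most like each, a fixed set of partners, list genes past the threshold and the largest rise and fall of a list. The RNA-seq methods of the study beyond these labels are not given in the sources used here. Intervals and the floor of 3 reads cover counting or library error only.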

Additional observations from a re-analysis of the deposited data

How the results depend on the processing

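No STAT gene was called in BM, over both organs, between organs in Δβ or for the interaction under any alternative. Leaving out 1 library at a time gave 0 to 2 called members in SP and 0 to 1 between organs in WT, the higher counts without WT SP replicate 3, and every other alternative gave 0. With the replicate number as a block the number of members called stayed at 0 in each comparison, and genes called over all were 2 in SP, 5 in BM and 55 over both organs in place of 12, 8 and 17; same-numbered WT and Δβ libraries did not deviate together (r = -0.17 to 0.20), so these share only a number. The count over all genes moved widely. In SP it was 1 with a pseudocount of 0.25, 5 without a filter, 2 with a minimum mean of 50, 3 with TMM or without a trend, 4 with edgeR, 457 with DESeq2 and 2 with the SP libraries alone. Without a trend it was 5 in BM and 11 over both organs, and with the BM libraries alone it was 3 in BM. A fit of the 12 single libraries, not averaged by number, gave 48 over both organs. That fit treats same-numbered SP and BM libraries as independent. Leaving out 1 library gave 1 to 1884 genes in SP, 1 to 13 in BM and 0 to 598 between organs in WT. Leaving out 1 of the averages of an SP and a BM library gave 2 to 27 over both organs. DESeq2 gave 37 in BM, 422 over both organs and 111 between organs in WT.

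Directions turned as follows. Only Stat5b and Stat6 in SP and Stat6 between organs in WT were called in any setting, without WT SP replicate 3, and none of the turned values was called. Quantile normalization put Stat6 in BM at 0.011. Without WT SP replicates 1 and 2, an alternative chosen after seeing the data, Stat5b and Stat6 were at 0.35 and 0.17 in SP and at -0.39 and -0.10 for SP against BM in WT. The interaction then was 0.072 for Stat3, -0.071 for Stat5a, 0.21 for Stat5b and 0.20 for Stat6. Leaving out 1 library gave ranges of -0.21 to 0.019 for Stat3, -0.67 to 0.13 for Stat4 and -0.18 to 0.085 for Stat6 in BM. For SP against BM in Δβ they were -0.089 to 0.18 (Stat2), -0.030 to 0.20 (Stat3), -0.47 to 0.33 (Stat4), -0.0046 to 0.14 (Stat5a) and -0.011 to 0.25 (Stat6). For the interaction of Stat5a the range was -0.084 to 0.065. For Stat5b over both organs, with 1 average of an SP and a BM library left out, it was -0.20 to 0.015. The causes were not tested.

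With the length of the longest transcript in place of all exons, mean RPKM over the 12 libraries was 18.5 for Stat2, 46.4 for Stat3 and 15.1 for Stat5a, and the order of the 6 genes was the same in all 4 groups. Reads numbered 54 or more for each member in each library, so depth limits these values less than the spread between 3 libraries does, above all for Stat4.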
